A study of Sus scrofa with 59 samples.

Results

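The calpain system of skeletal muscle was followed through 4 genes in the longissimus dorsi, the long muscle of the back, of 59 pigs. CAPN1 and CAPN2 encode the catalytic subunits of the 2 widely expressed calpains, CAPN3 encodes a calpain found mainly in skeletal muscle, and CAST encodes calpastatin, the inhibitor protein. All probe sets that the array's annotation assigns to these symbols were taken, which gave 9 of the 24123 probe sets on the array: 1 for CAPN1, 1 for CAPN2, 2 for CAPN3 and 5 for CAST. Of these 9, 6 passed the filter on dim signals (a mean of at least 6.27 log2 over all arrays) and were among the 12000 probe sets tested, which cover 4928 named genes.

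Calpains are cysteine proteases that calcium activates inside the cell. The products of CAPN1 and CAPN2 each pair with a small regulatory subunit, encoded by CAPNS1, and are held in check by calpastatin, which binds the calcium-activated enzyme. They cut structural proteins at defined places rather than degrading them fully, and in muscle after slaughter calpain activity weakens the Z-disc and its links, the process behind the tenderising of aged meat. CAPN3 binds the giant protein titin, is not inhibited by calpastatin, and its loss in humans causes a limb-girdle muscular dystrophy.

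The pigs were LD/LW x Duroc crosses, all 170 days old, housed together with free access to feed, and each gave 1 muscle sample and 1 Affymetrix array. The sources used here give no sex, batch, treatment or trait value for any pig, so all 59 arrays formed 1 group and the results describe differences between pigs. Transcript levels at slaughter were measured, not enzyme activity. Values are the authors' normalised signals on what was read as the log2 scale, and the brightness of different probe sets is not comparable.

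Of the fibre markers on the array, 9 of 10 slow and 8 of 8 fast ones passed the filter, with median signals of 13.66 and 14.60 log2, and the slow fibre gene CASQ2 did not (4.91). Of the markers of other cells, 5 of 9 for adipocytes, 10 of 13 for macrophages and leukocytes, 10 of 13 for endothelium, 7 of 7 for smooth muscle, 2 of 6 for nerve and 1 of 3 for red blood cells passed. Their list medians were 6.48, 6.75, 7.48, 9.25, 6.19 and 6.10 log2 in that order, a description only, since different probe sets are not comparable. RNA quality was read from actin and GAPDH control probe sets as the mean log2 signal at the 3′ end of the transcript minus that at the 5′ end, which grows as RNA breaks. It ran from 0.718 to 1.21 in 58 pigs (median of all pigs 0.884) and reached 1.40 in pig 41, which stood apart. In such bulk samples, fewer cells of a type and less RNA per cell cannot be told apart.

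CAPN3 varied most between pigs, and CAPN1 and CAPN2, the conventional calpains, varied less, near or below the median SD of 0.21 log2 over tested probe sets. CAPN1 (Entrez Gene 397027) had 7.60 log2 in the lowest pig, a median of 8.19 and 8.53 in the highest, with a mean of 8.16 ± 0.19 (SD, n = 59). CAPN2 (Entrez Gene 397393) had 10.88 log2 in the lowest pig, a median of 11.25 and 11.70 in the highest, with a mean of 11.27 ± 0.17 (SD, n = 59). The highest pig thus carried 1.90 times the CAPN1 signal and 1.76 times the CAPN2 signal of the lowest, and pig 72 was lowest for both. The SD of CAPN1 lay at the 42.8th percentile of the SDs of all tested probe sets and that of CAPN2 at the 30.5th.

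The brighter probe set of CAPN3 (Entrez Gene 397349) had 9.57 log2 in pig 36, a median of 10.94 and 11.72 in pig 67, a 4.44-fold range, with a mean of 10.85 ± 0.47 (SD, n = 59). Its lower end was drawn out, with pigs 36, 41 and 57 all at or below 9.74 log2. On the 3′ minus 5′ measure of RNA quality, pigs 41 and 57 had high values of 1.40 and 1.08, and pig 36 had 0.94. Pig 38, second highest on that measure at 1.21, ranked 4 from the lowest in this probe set. The dimmer CAPN3 probe set had 6.74 log2 in the lowest pig, a median of 8.05 and 9.24 in the highest, with a mean of 8.04 ± 0.57 (SD, n = 59). Their SDs lay at the 93.9th and 97.0th percentiles. The 2 CAPN3 probe sets did not order the pigs alike: their correlation was 0.031 (95% interval -0.227 to 0.285, n = 59), and "CAPN3" alone means the brighter one from here on.

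Calpastatin was intermediate. The brightest probe set of CAST (Entrez Gene 397135) had 9.80 log2 in the lowest pig, a median of 10.44 and 10.81 in the highest, with a mean of 10.43 ± 0.22 (SD, n = 59) and an SD at the 55.7th percentile. The second had 7.54 log2 in the lowest pig, a median of 7.94 and 8.38 in the highest, with a mean of 7.94 ± 0.21 (SD, n = 59). These 2 ordered the pigs similarly, with r = 0.642 (95% interval 0.462 to 0.771). The other 3 CAST probe sets averaged 5.29, 4.79 and 4.25 log2, between 0.98 and 2.02 below the filter, and correlated with the brighter pair at -0.166 to 0.202. They were not tested.

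**Figure D1:**
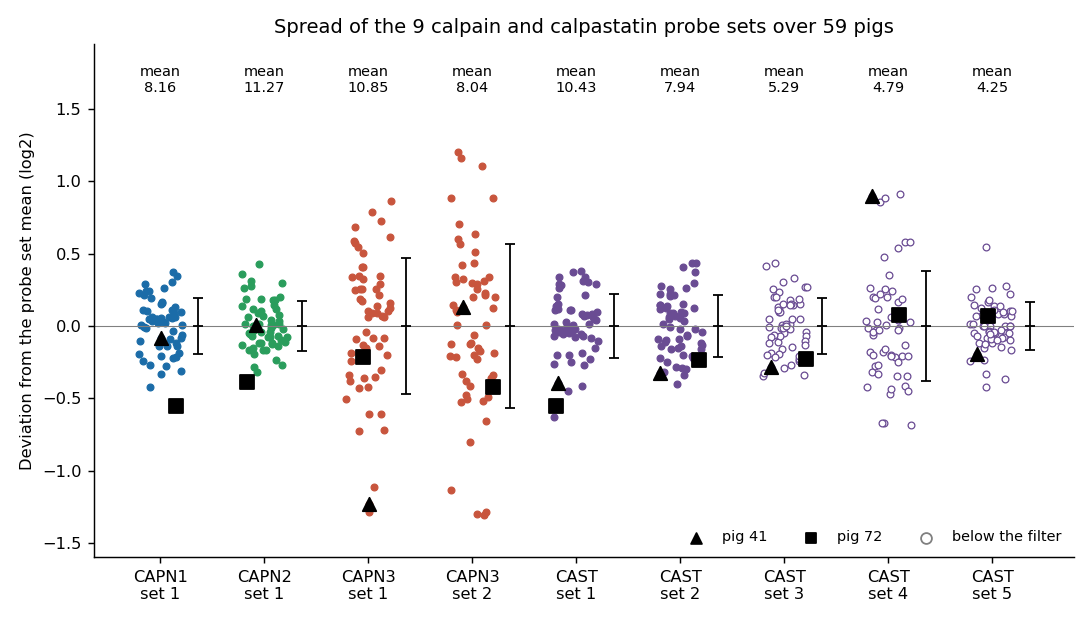
Each point is 1 of 59 pigs, placed by the deviation of its log2 signal from the mean of that probe set (y axis, log2), for the 9 probe sets (x axis, numbered by brightness within a gene). Bars at the right of each column are ± 1 SD and open points mark probe sets below the filter. Both CAPN3 probe sets spread widest among the tested ones, with SDs of 0.47 and 0.57, and pig 72 (square) is the lowest point of CAPN1 and of CAPN2.

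The first comparison asked whether the proteases and their inhibitor vary together between pigs. Of the 6 pairs of genes, 3 passed a two-sided permutation test of 100000 resamples after Benjamini-Hochberg adjustment over the 6, all with positive correlations. CAPN3 and CAST were most closely related, with r = 0.531 (95% interval 0.319 to 0.693, n = 59, permutation p = 3e-05, adjusted p = 0.00018) and Spearman's rho = 0.525 (permutation p = 2e-05, adjusted p = 0.00012). Among the 5 lowest pigs for each gene, 3 were shared (pigs 36, 41 and 52). Without pigs 36 and 41, the 2 farthest from the median of CAPN3, r was 0.436 (permutation test, adjusted p = 0.0042), and each single pig left out kept r between 0.484 and 0.572. Both genes had negative correlations with the 3′ minus 5′ measure (r = -0.65 for CAPN3 and -0.31 for CAST), and pig 41 was extreme for that measure. Given the measure, the partial correlation of CAPN3 with CAST was 0.457 (permutation test, adjusted p = 0.00105), and without pig 41 r was 0.494 (adjusted p = 0.00078). With the dimmer CAPN3 probe set in its place, r was -0.031 (permutation test, adjusted p = 0.812), so the relation holds for 1 of the 2 CAPN3 probe sets.

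CAPN1 and CAST had r = 0.380 (95% interval 0.137 to 0.580, n = 59, permutation p = 0.00272, adjusted p = 0.00816), but rho was 0.269 (permutation p = 0.039, adjusted p = 0.117). This relation rested on the lowest pigs: it was 0.266 (permutation test, adjusted p = 0.138) without pigs 31 and 72 and 0.293 (adjusted p = 0.0772) without pig 72 alone. Given the score of fast fibre genes that is described with the programmes, the partial correlation of CAPN1 with CAST was -0.011 (permutation test, adjusted p = 0.933), whereas that of CAPN3 with CAST was 0.407 (adjusted p = 0.00732). CAPN1 and CAPN2 had r = 0.293 (95% interval 0.040 to 0.511, permutation p = 0.0244, adjusted p = 0.0487), with rho = 0.158 (permutation p = 0.232, adjusted p = 0.348). Without pigs 31 and 72, r was 0.179 (permutation test, adjusted p = 0.278), and leaving out any 1 of 25 pigs ended the call.

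The remaining pairs did not pass. CAPN1 and CAPN3 had r = 0.206 (95% interval -0.053 to 0.439, rho = 0.239, permutation test, adjusted p = 0.174 for r and 0.136 for rho). With the 3′ minus 5′ measure held constant, their partial correlation was 0.393 (permutation test, adjusted p = 0.00398). CAPN2 and CAST had r = 0.137 (-0.124 to 0.380, rho = 0.042, permutation test, adjusted p = 0.36 for r and 0.814 for rho). CAPN2 and CAPN3 had r = 0.036 (-0.222 to 0.290, rho = 0.031, permutation test, adjusted p = 0.785 for r and 0.814 for rho). All 3 intervals span 0, and their upper ends lie between 0.290 and 0.439.

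**Figure D2:**
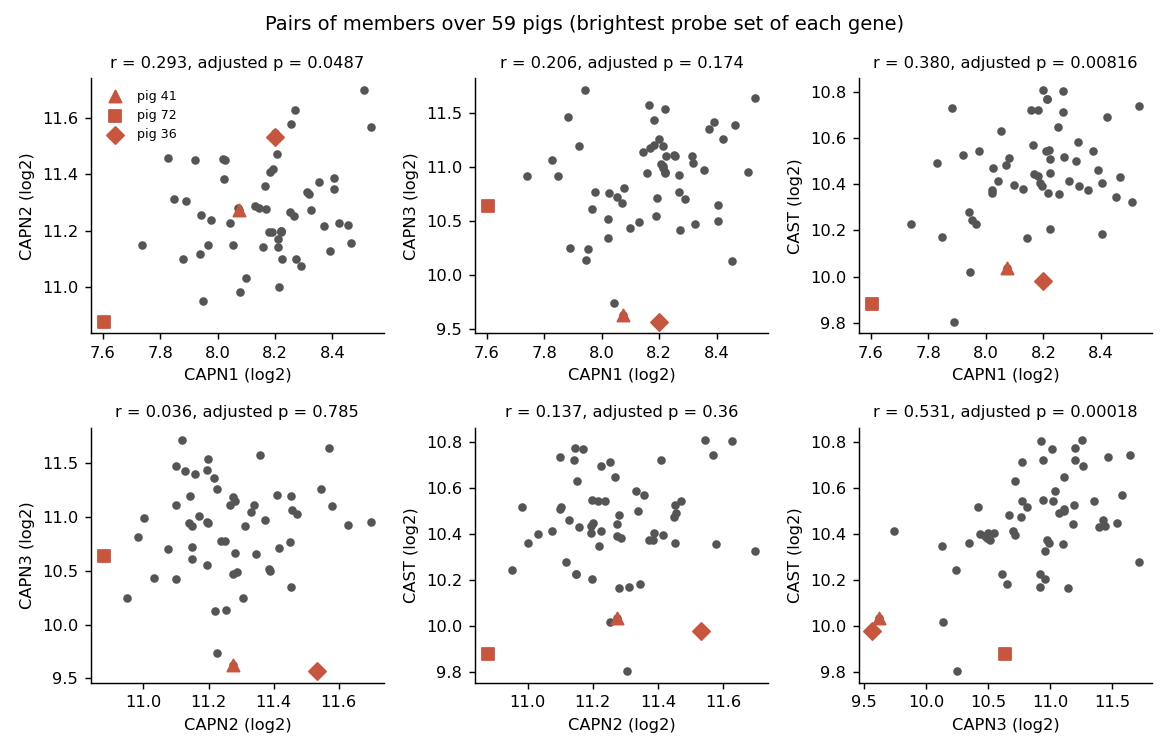
Log2 signals of each pair of genes in 59 pigs (1 point each), using the brightest probe set of a gene, with Pearson's r and the permutation p adjusted over 6 pairs above each panel. Pigs 36, 41 and 72 are marked, and the panel of CAPN3 against CAST shows the closest relation, with r = 0.531.

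The next comparison asked which muscle programmes each member followed. For 11 gene lists a score per pig was formed from the standardised signals of the list's genes, and the slope of every tested probe set per SD of the score was fitted with limma. Of the 66 slopes for the 6 tested member probe sets, 14 had an adjusted p under 0.05. The share of all probe sets that passed differed widely between scores, from 4.63% for slow fibre to 46.1% for heat shock. It is given as the background with the first result of each score. Most fast fibre genes lay near the top of the array's range, with a median of 14.60 log2 against a highest value of 15.04 (dimmest ATP2A1, 12.10). Some of them differed little between pigs, such as MYLPF with an SD of 0.036 log2, and standardising gave each gene equal weight. Whether a ceiling of the signal shaped this score was not tested.

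Of the 11 scores, CAPN1 correlated most highly with fast fibre and glycolysis. Its signal rose by 0.14 ± 0.02 log2 (SE) per SD of the fast fibre score (limma, adjusted p = 1.14e-07, r = 0.72) and by 0.13 ± 0.02 per SD of the glycolysis score (limma, adjusted p = 2.09e-06, r = 0.67), against backgrounds of 27.5% and 21.5% of probe sets called. Pig 72, with the lowest CAPN1, also had the lowest fast fibre score at -3.92 SD and the lowest glycolysis score at -3.49 SD. Left out singly, it lowered the slopes to 0.12 and 0.11, the lowest of any pig, and both calls held. CAPN1 had a slope of -0.07 ± 0.02 log2 per SD of the heat shock score (limma, adjusted p = 0.00768, background 46.1%). With the first principal component in the model that slope was -0.022 and the call ended (limma, adjusted p = 0.81). The component correlated with the heat shock score at r = -0.858 and with the proteasome score at r = -0.657. It thus holds much of these scores, so a call lost in that setting does not show that a relation is absent. CAPN1 rose by 0.07 ± 0.02 per SD of the extracellular matrix score (limma, adjusted p = 0.0425, background 13.0%), a call that ended when any 1 of 16 pigs was left out.

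CAPN2 followed the oxidative programme inversely. It had a slope of -0.08 ± 0.02 log2 (SE) per SD of the oxidative phosphorylation score (limma, adjusted p = 0.00205, r = -0.50, background 10.1%), and the call held with each pig left out in turn. Per SD of the fatty acid oxidation score the slope was -0.07 ± 0.02 (limma, adjusted p = 0.0154, background 7.60%). Without pig 72 that call ended, with an adjusted p of 0.117 in limma. Pig 72 had the highest oxidative phosphorylation score, 3.25 SD, and the lowest CAPN2. CAPN2 rose by 0.06 ± 0.02 log2 for each SD of the heat shock score (limma, adjusted p = 0.0188) and by 0.06 ± 0.02 per SD of the proteasome score (limma, adjusted p = 0.0275, background 32.2%). Both calls ended after quantile normalisation (limma, adjusted p = 0.0678 for heat shock and 0.0768 for proteasome) and with the first principal component in the model (0.0504 and 0.155). That component correlated with these scores at r = -0.858 and -0.657, so the losses in that setting decide little. The heat shock call also ended with the mean over a gene's probe sets (limma, adjusted p = 0.0618) and without pig 36 (0.0556), whose heat shock score was 2.94 SD.

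The brightest probe sets of CAPN3 and CAST, like CAPN1, were higher in pigs with higher glycolysis and fast fibre scores. The brighter CAPN3 probe set rose by 0.25 ± 0.05 log2 (SE) for each SD of the glycolysis score (limma, adjusted p = 0.000282, r = 0.54) and by 0.19 ± 0.06 per SD of the fast fibre score (limma, adjusted p = 0.00778, r = 0.41). The fast fibre call did not hold with arrays re-centred on their medians or with the first principal component in the model. The dimmer CAPN3 probe set followed neither, with r = 0.00 and 0.09; its 1 call was a slope of -0.20 ± 0.07 on the extracellular matrix score (limma, adjusted p = 0.0353), which ended without any 1 of pigs 16, 19, 26 and 36. The brightest CAST probe set rose by 0.12 ± 0.02 log2 for each SD of the fast fibre score (limma, adjusted p = 0.000255, r = 0.54) and by 0.10 ± 0.03 per SD of the glycolysis score (limma, adjusted p = 0.0071, r = 0.43). Without pig 72 this glycolysis slope had an adjusted p of 0.0535 in limma. The call also ended without pigs 59 and 72 and with the first principal component in the model. On fast fibre and glycolysis the second CAST probe set was not called (r = 0.21 and 0.28, limma, adjusted p = 0.224 and 0.109). The second CAST probe set rose by 0.09 ± 0.02 log2 for each SD of the proteasome score (limma, adjusted p = 0.0027, r = 0.44), while the brightest had r = -0.09 there.

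No member probe set passed on the slow fibre, adipocyte, macrophage and leukocyte or immediate early scores, whose backgrounds were 4.63%, 6.64%, 9.18% and 15.2%. In limma, 0 of these 24 slopes had an adjusted p under 0.05 and 6 an unadjusted p under 0.05, 3 of them negative slopes on slow fibre. Correlations with the slow fibre score ran from -0.34 for CAPN2 to 0.11 for the dimmer CAPN3 probe set, and those with the adipocyte score from -0.27 to 0.15. The macrophage score correlated with CAPN1 at 0.28, the highest value for a member.

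CAPN3 also followed the RNA quality measure. Its brighter probe set had a slope of -0.31 ± 0.05 log2 (SE) per SD of the 3′ minus 5′ measure (limma, adjusted p = 1.25e-06, r = -0.65, background 9.77%), so pigs with a larger 3′ excess had less CAPN3 signal. The correlation was -0.594 without pig 41 and -0.574 without pigs 38 and 41. The dimmer CAPN3 probe set had r = 0.079, CAPN1 0.137, CAPN2 -0.028 and the 2 brighter CAST probe sets -0.31 and -0.35, none of them called. With the measure in the model, the CAPN3 calls on fast fibre and glycolysis held.

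**Figure D3:**
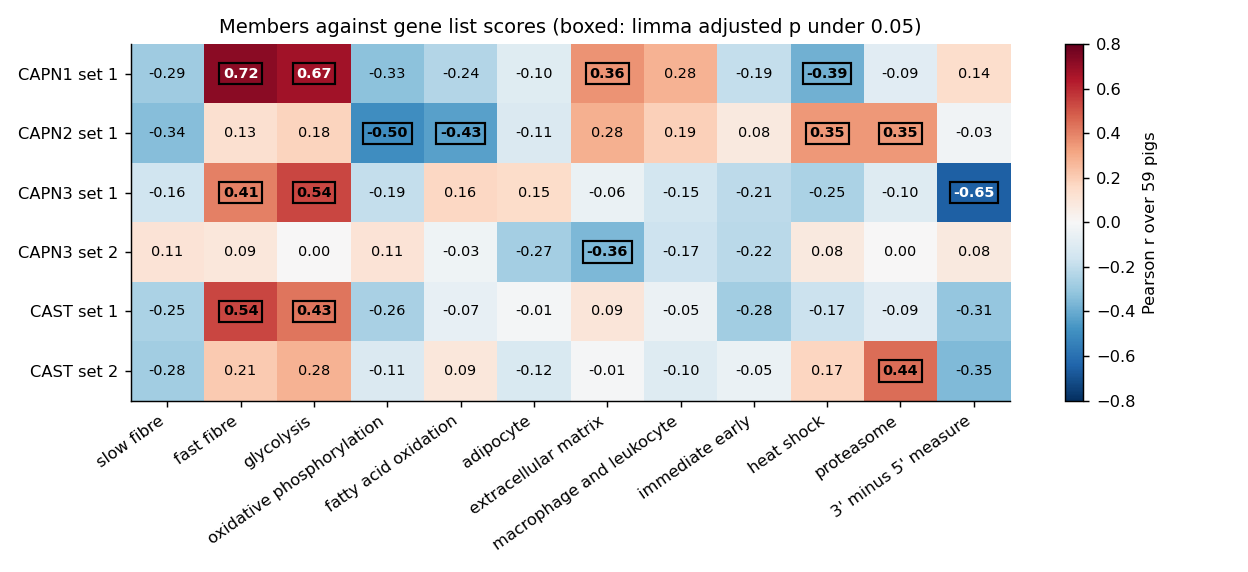
Pearson correlations over 59 pigs between the 6 tested member probe sets (rows) and the 11 gene list scores and the RNA quality measure (columns), red for positive and blue for negative, with boxes around slopes that passed limma at an adjusted p under 0.05. The fast fibre and glycolysis columns hold the boxes of CAPN1, CAPN3 set 1 and CAST set 1, while CAPN2 is boxed for oxidative phosphorylation at -0.50 and fatty acid oxidation at -0.43.

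Whether members differed in their relation to a score was tested on the difference of the 2 standardised signals, over 6 pairs of genes and 12 measures, or 72 tests by two-sided permutation with Benjamini-Hochberg adjustment. Of these, 12 passed. CAPN1 and CAPN2 differed on fast fibre (r of the difference 0.498, permutation test, adjusted p = 0.00072), glycolysis (0.412, adjusted p = 0.0114), heat shock (-0.617, adjusted p = 0.00036) and proteasome (-0.368, adjusted p = 0.0294). All 4 of these also passed with Spearman's rho, without the 2 most extreme pigs of the score and without pig 41. On oxidative phosphorylation, where only CAPN2 was called, the 2 genes were not shown to differ (0.143, permutation test, adjusted p = 0.449).

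CAPN2 and CAPN3 differed on fatty acid oxidation (-0.429, permutation test, adjusted p = 0.0114) and heat shock (0.434, adjusted p = 0.00979), and CAPN2 and CAST on heat shock (0.395, adjusted p = 0.015), though none of these 3 passed without the 2 extreme pigs of the score (adjusted p = 0.118, 0.0999 and 0.119). CAPN1 and CAPN3 differed on the macrophage score (0.339, permutation test, adjusted p = 0.0491), which did not pass without pig 41 (0.0712) or by Spearman's rho (0.106). The other 4 were on RNA quality, where CAPN3 differed from CAPN1, CAPN2 and CAST (permutation test, adjusted p = 0.00036, 0.00979 and 0.0405) and CAPN1 from CAST (0.0121). The difference of CAPN1 from CAST did not pass without the 2 extreme pigs (permutation test, adjusted p = 0.0703). No pair of CAPN1, CAPN3 and CAST was shown to differ on fast fibre or glycolysis, where the adjusted p ran from 0.191 to 0.591 by permutation.

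**Figure D4:**
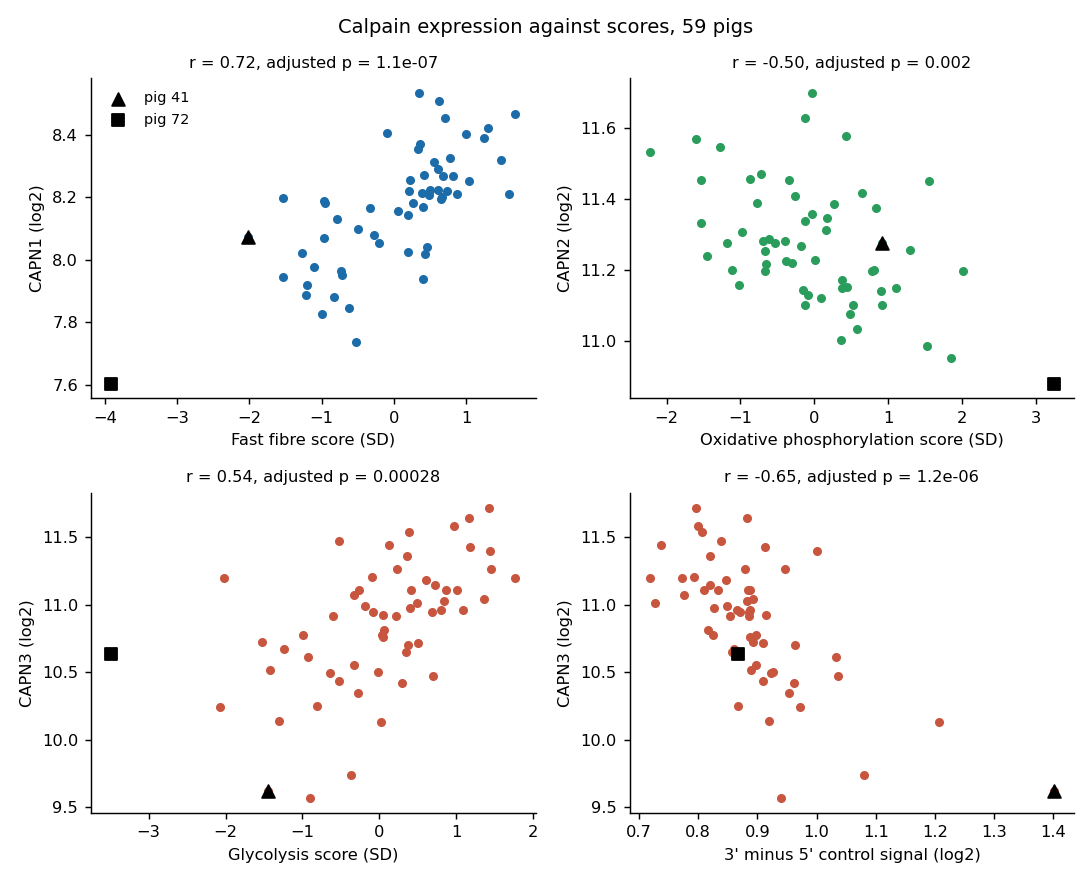
Log2 signal of a member (y axis) against a score in SD, or against the 3′ minus 5′ control signal in log2 (x axis), for 59 pigs with 1 point each; the adjusted p above each panel is from limma. Pig 72 (square) lies at the far low end of the fast fibre and glycolysis scores and the far high end of the oxidative phosphorylation score, and pig 41 (triangle) at 1.40 on the RNA quality measure.

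The last comparison took each member as the regressor and asked which genes across the array followed it. With limma, CAPN1 was followed by 3370 of 11999 probe sets (28.1%), of which 2189 were higher and 1181 lower with more CAPN1. CAPN3 was followed by 3623 of 11998 (30.2%; 1843 higher, 1780 lower), CAST by 1684 of 11998 (14.0%; 962 higher, 722 lower) and CAPN2 by 650 of 11999 (5.42%; 432 higher, 218 lower). The split into higher and lower depends on array scaling for CAPN1, CAPN2 and CAPN3. After quantile normalisation it was 1952 higher and 1777 lower for CAPN1, 149 higher and 194 lower for CAPN2 and 2126 higher and 1642 lower for CAPN3. After re-centring it was 806 higher and 224 lower for CAPN2 and 1517 higher and 1968 lower for CAPN3. The CAST count was 955 without pig 37, 1018 without pig 52, 1083 without pig 36 and 1120 without pig 72, and the CAPN2 count was 381 without pig 36.

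Most genes of fast fibres and glycolysis were higher with more CAPN1. Of all 4927 named genes, 18.8% were higher and 10.8% lower with CAPN1, with a median r of 0.036. Of 8 fast fibre genes, 6 were higher and none lower (median r 0.56), among them the calcium pump gene ATP2A1, with a slope of 0.13 ± 0.03 log2 (SE) per SD of CAPN1 (limma, adjusted p = 0.000203), and the fast troponin I gene TNNI2 at 0.037 ± 0.008 (limma, adjusted p = 0.00051). Of 11 glycolysis genes, 7 were higher and none lower (median r 0.45), led by PGK1 at 0.064 ± 0.011 (limma, adjusted p = 2e-05) and PFKM, the muscle phosphofructokinase, at 0.10 ± 0.02 (limma, adjusted p = 2.85e-05). These genes also make up the scores above, so the counts are the same relation seen gene by gene.

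Heat shock genes ran the other way, with 11 of 18 lower and none higher with CAPN1 (median r -0.33), among them the mitochondrial chaperonin gene HSPD1 at -0.12 ± 0.03 log2 per SD (limma, adjusted p = 0.00078). The count of lower genes was 5 after re-centring and 16 after quantile normalisation, and with the first principal component in the model none of the 18 passed. That component correlated with the heat shock score at r = -0.858, so it holds much of what these genes share. Matrix genes were higher in 10 of 19 cases and lower in none (median r 0.33), including the proteoglycan gene LUM at 0.25 ± 0.05 (limma, adjusted p = 0.000286) and the matrix protease gene MMP2 at 0.17 ± 0.04 (limma, adjusted p = 0.000333). In the oxidative phosphorylation list 7 of 23 were lower, and in the slow fibre list 4 of 9, but without pigs 31 and 72 these counts were 1 and 0. Of 7 myogenic regulators 4 were higher: the transcription factor genes MEF2A, MEF2D and SIX4, and MSTN, which encodes the growth inhibitor myostatin, at 0.39 ± 0.07 (limma, adjusted p = 7.97e-05).

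Where genes of mitochondrial energy metabolism followed CAPN2, they were lower with more of it. Of all named genes, 4.71% were higher and 2.21% lower with CAPN2, with a median r of 0.051. Of 23 oxidative phosphorylation genes, 10 were lower and none higher (median r -0.36), including the complex I genes NDUFA1 at -0.08 ± 0.02 log2 per SD (limma, adjusted p = 0.00179) and NDUFC1 at -0.08 ± 0.02 (limma, adjusted p = 0.00478). Of 17 fatty acid oxidation genes, 6 were lower and none higher (median r -0.26), led by ETFA and ETFB, the subunits of the electron transfer flavoprotein, with slopes of -0.08 ± 0.02 and -0.13 ± 0.03 (limma, adjusted p = 0.00359 and 0.00507). Heat shock genes were higher in 7 of 18 cases and lower in none (median r 0.28), led by HSP90AB1, which encodes a constitutive HSP90, at 0.16 ± 0.03 (limma, adjusted p = 0.00179). Of 8 fast fibre genes, 0 passed in limma and 1 had an unadjusted p under 0.05.

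Glycolysis genes and some fast fibre genes were higher with more CAPN3. Of all named genes, 14.3% were higher and 16.5% lower with CAPN3, with a median r of -0.028. Of 11 glycolysis genes, 6 were higher and 1, the hexokinase gene HK1, was lower (median r 0.39); GPI, glucose-6-phosphate isomerase, had 0.13 ± 0.02 log2 per SD (limma, adjusted p = 9.85e-09). Of 8 fast fibre genes, 3 were higher (TNNT3, MYOZ1 and ATP2A1), and of 17 fatty acid oxidation genes 5 were higher and none lower. Without pig 36, the lowest for CAPN3, only 1 fatty acid oxidation gene was higher and 1 lower. Of 29 proteasome genes, 3 were higher and 7 lower, against backgrounds of 14.3% and 16.5%: the ATPase subunit genes PSMC5 at 0.13 ± 0.02 and PSMC3 at 0.11 ± 0.02 were higher (limma, adjusted p = 3.96e-06 and 4.59e-05), and the core subunit gene PSMA5 was lower at -0.14 ± 0.04 (limma, adjusted p = 0.00268). The proteasome count was 3 higher and 4 lower without pig 36, 2 higher and 13 lower with the RNA quality measure in the model, and 7 higher and none lower with the first principal component. With the mean of both CAPN3 probe sets as the regressor, 3 glycolysis genes, 3 fast fibre genes and 0 fatty acid oxidation genes were higher.

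Fast fibre and glycolysis genes also accompanied CAST. Of all named genes, 7.10% were higher and 7.79% lower with CAST, with a median r of -0.008. Of 8 fast fibre genes, 3 were higher and none lower (median r 0.41), again TNNT3, MYOZ1 and ATP2A1. Of 11 glycolysis genes, 4 were higher and 1, HK1, was lower (median r 0.31). Of 18 heat shock genes only HSPA5, the chaperone of the endoplasmic reticulum, was lower, at -0.16 ± 0.04 log2 per SD (limma, adjusted p = 0.00501), and none was higher. With the mean of all 5 CAST probe sets as the regressor, 1 fast fibre gene and 1 glycolysis gene passed in limma, and the counts were the same with the first principal component in the model.

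**Figure D5:**
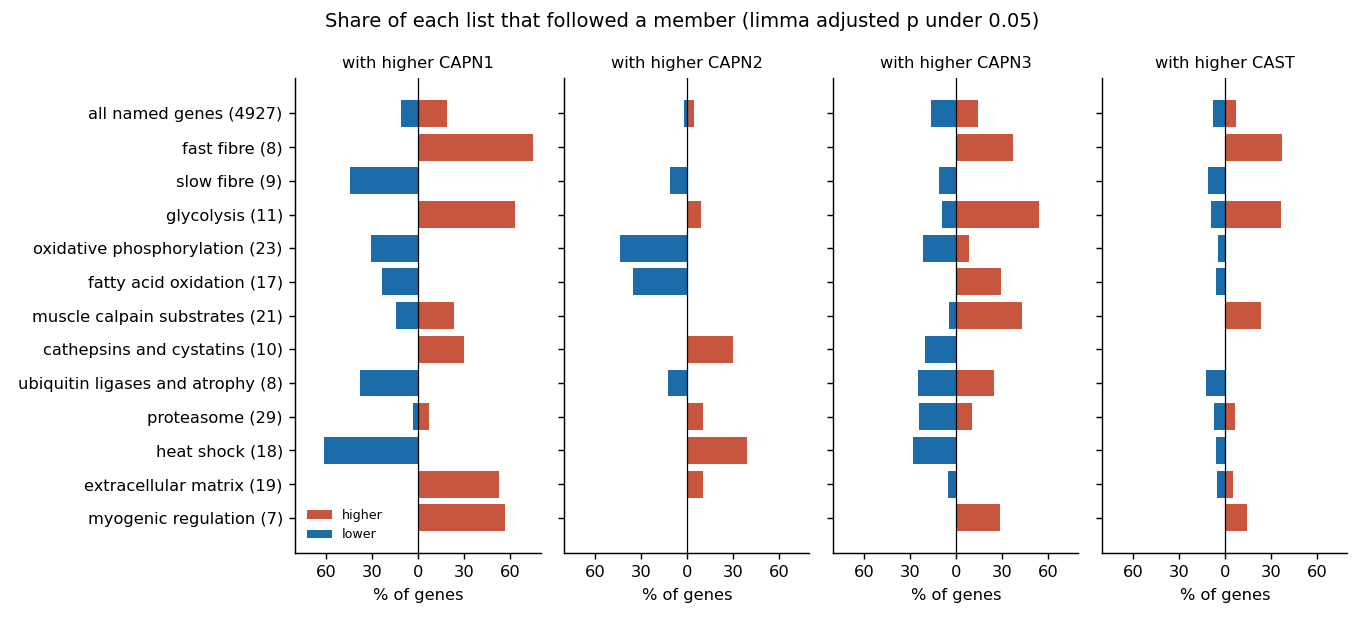
Percentage of the tested genes of each list (number in brackets) that were higher (red, to the right) or lower (blue, to the left) with more of a member, by limma at an adjusted p under 0.05, with all named genes in the top row as the background. Fast fibre and glycolysis bars point right for CAPN1, CAPN3 and CAST, apart from the single glycolysis gene HK1 lower with CAPN3 and with CAST, and oxidative phosphorylation bars point left for CAPN2.

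Among 21 measured genes for proteins known as calpain substrates in muscle, CAPN3 was accompanied by 9 higher and 1 lower (median r 0.32), CAST by 5 higher and none lower (0.12), CAPN1 by 5 higher and 3 lower (-0.02) and CAPN2 by 0 in limma (8 at an unadjusted p under 0.05). For CAPN1 these shares lie close to the 18.8% and 10.8% of all named genes, so they say nothing particular about substrates. The shares of all named genes were 14.3% higher and 16.5% lower for CAPN3. They were 7.10% and 7.79% for CAST and 4.71% and 2.21% for CAPN2. For CAPN3 the count was 5 higher and 1 lower after re-centring of the arrays and 5 higher and none lower without pig 36, and for CAST it was 1 higher with the mean of all its probe sets. The list shares TNNT1, TNNT3, TNNI1 and TNNI2 with the fibre lists. MYOM1, which encodes the M-band protein myomesin, had a slope of 0.16 ± 0.02 log2 (SE) per SD of CAPN3 (limma, adjusted p = 4.2e-08, r = 0.71), and TNNT3, the fast troponin T gene, 0.08 ± 0.01 (limma, adjusted p = 4.69e-07, r = 0.71). TNNT3 (0.07 ± 0.01, adjusted p = 0.000417), TPM1, a tropomyosin gene, and NEB, the thin filament protein nebulin, led with CAST in limma. The 3 genes lower with CAPN1 were ACTN2, TNNI1 and TNNT1, of which the troponins belong to slow fibres.

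Other partners and proteases were less uniform. Of 6 measured genes for titin N2A and membrane repair partners, 1 was higher and 1 lower with each of CAPN1 and CAPN3. With CAPN2, 2 were higher and none lower, and with CAST 2 were higher and 1 lower. Backgrounds higher and lower were 18.8% and 10.8% for CAPN1 and 4.71% and 2.21% for CAPN2. For CAPN3 they were 14.3% and 16.5%, and for CAST 7.10% and 7.79%. Without pig 36, none was higher with CAPN3. Not every called gene of this list is named here. ANXA2 and ANXA1, annexins of membrane repair, were higher with CAPN2 (0.24 ± 0.05 and 0.17 ± 0.05 log2 per SD, limma, adjusted p = 0.00713 and 0.0412). ANXA1 was lower with CAPN3 (-0.21 ± 0.05, limma, adjusted p = 0.00153). SGCD, a sarcoglycan gene, was higher with CAPN1 (0.27 ± 0.05, limma, adjusted p = 6.69e-05) and with CAST (0.21 ± 0.05, adjusted p = 0.00614), and ANKRD1, whose ankyrin repeat product binds titin N2A, was lower with both (-0.37 ± 0.11 and -0.33 ± 0.11, adjusted p = 0.0099 and 0.0426). Of 10 lysosomal cathepsins and cystatins, 3 were higher with CAPN1 (CTSK, CTSS and CTSB), 3 were higher with CAPN2 (CTSB, CTSH and the inhibitor CSTB), and 2 were lower with CAPN3 (CTSD and CTSZ). The backgrounds of named genes were 18.8% higher with CAPN1, 4.71% higher with CAPN2 and 16.5% lower with CAPN3, and without pig 36 no gene of this list passed with CAPN3. With CAST, 0 passed in limma and 2 had an unadjusted p under 0.05, both lower.

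Of 8 genes of ubiquitin ligases and atrophy, 3 were lower and none higher with CAPN1, and 2 were higher and 2 lower with CAPN3. With CAPN2 and with CAST, 1 was lower and none higher. The backgrounds lower were 10.8% for CAPN1, 16.5% for CAPN3, 2.21% for CAPN2 and 7.79% for CAST, and 14.3% were higher with CAPN3. GADD45A, a stress-induced gene, was lower with CAPN1 (-0.55 ± 0.11 log2 per SD, limma, adjusted p = 0.000306), CAPN3 (-0.47 ± 0.12, adjusted p = 0.00228) and CAST (-0.47 ± 0.12, adjusted p = 0.0063). MUL1 and FOXO1 were also lower with CAPN1 (-0.10 ± 0.03 and -0.16 ± 0.05, limma, adjusted p = 0.0112 and 0.0147). STUB1, a chaperone-linked ubiquitin ligase, was higher with CAPN3 (0.083 ± 0.012, limma, adjusted p = 5.71e-07). Of the list genes called with CAPN3, only GADD45A and STUB1 are named here. UBE2B, a ubiquitin-conjugating enzyme, was lower with CAPN2 (-0.08 ± 0.02, limma, adjusted p = 0.00598). Of 3 caspase and apoptosis genes above the filter, CASP6 was higher (0.11 ± 0.03, limma, adjusted p = 0.0154) and CASP2 lower (-0.07 ± 0.02, adjusted p = 0.0051) with CAPN1, against backgrounds of 18.8% higher and 10.8% lower. With 3 genes these shares say little, and none passed with the other members.

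Of 13 other calpain family genes listed, 3 were on the array. CAPNS1, the regulatory subunit that CAPN1 and CAPN2 share, had 2 probe sets that correlated at 0.089. The brighter averaged 9.65 ± 0.32 log2 (SD, n = 59) and was lower with CAPN1 (-0.13 ± 0.04 log2 per SD, limma, adjusted p = 0.00612) and with the fast fibre score (-0.17 ± 0.03, adjusted p = 0.000196). The second averaged 9.30 ± 0.25 (SD, n = 59) and followed CAPN3 (0.13 ± 0.03, limma, adjusted p = 0.000339), but it also followed the RNA quality measure, with r = -0.57 (limma, adjusted p = 9.42e-05), as CAPN3 did. With CAPN1 and fast fibre this second probe set had r = 0.13 and 0.22, neither called (limma, adjusted p = 0.468 and 0.202). On glycolysis the brighter CAPNS1 probe set was lower (-0.13 ± 0.04, limma, adjusted p = 0.0100) and the second higher (0.09 ± 0.03, adjusted p = 0.0194). Both were higher with the heat shock score (r = 0.33 and 0.32, limma, adjusted p = 0.0228 and 0.0324), whose background was 46.1%. CAPN7 averaged 9.49 ± 0.17 (SD, n = 59), was higher with CAPN1 (0.08 ± 0.02, limma, adjusted p = 0.00388) and lower with the heat shock score (-0.13 ± 0.02, adjusted p = 4.25e-10, r = -0.76). Like CAPN1, it was higher with fast fibre (r = 0.50, limma, adjusted p = 0.00105) and glycolysis (r = 0.34, adjusted p = 0.0456). It was lower with proteasome (r = -0.51, limma, adjusted p = 0.000415) and immediate early scores (r = -0.41, adjusted p = 0.0161). CAPN10 averaged 8.16 ± 0.12 (SD, n = 59) and followed no member, and it was lower with the heat shock score (r = -0.33, limma, adjusted p = 0.0308).

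The named genes whose pattern was most like each member over the 59 pigs were taken by Pearson's r. For CAPN1 they were the chemokine gene CXCL12 (r = 0.711, limma, adjusted p = 1.29e-06), the receptor gene NEO1 (0.703), the lipid phosphatase gene INPPL1 (0.690), the phosphorylase kinase subunit gene PHKB (0.688), the detoxifying enzyme gene GLO1 (0.684) and the fast myosin light chain gene MYLPF (0.679). The most opposed were TIMM9, a chaperone of mitochondrial import (-0.599, limma, adjusted p = 4.04e-05), the autophagy gene WIPI1 (-0.598), the membrane protease gene SPPL2B (-0.587) and DBT (-0.578), of branched-chain amino acid breakdown. A second INPPL1 probe set had r = -0.105, so that gene rests on 1 probe set. MYLPF differed little between pigs, with a mean of 14.70 ± 0.036 log2 (SD, n = 59), near the top of the array's range.

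For CAPN2 the closest were NTAN1, an enzyme of protein degradation signals (r = 0.654, limma, adjusted p = 0.000215), the ribosome assembly factor gene EIF6 (0.630), the calcium-activated scramblase gene ANO6 (0.602), the histone chaperone gene NAP1L1 (0.594) and SMS and SRM (0.592 and 0.589), which encode spermine and spermidine synthase. NDUFA1 (-0.575, limma, adjusted p = 0.00179), DLD (-0.561), TRNP1 (-0.546) and ETFA (-0.544) were most opposed. DLD encodes the dihydrolipoamide dehydrogenase of mitochondria. A second NDUFA1 probe set had r = 0.099 with CAPN2.

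For CAPN3 the values were the highest of the 4 members. They were led by the iron-sulfur scaffold gene ISCU (r = 0.814, limma, adjusted p = 7.35e-11), the HSP90 co-chaperone gene CDC37 (0.814), the mitochondrial protease gene LONP1 (0.803), the Golgi mannosidase gene MAN2A2 (0.799), RYR1, the calcium release channel of muscle (0.797), and the ubiquitin ligase scaffold gene CUL4A (0.790). All 6 kept their call with the RNA quality measure in the model, with adjusted p from 2.79e-10 to 3.54e-07 in limma. LOC100516606 (-0.661), the ribosomal protein gene RPS29 (-0.659), C9H11orf54 (-0.658) and RPL36AL (-0.649) were most opposed. RPS29 lost its call given the RNA quality measure (limma, adjusted p = 0.061).

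For CAST the closest were GYG1, the glycogenin that primes glycogen synthesis (r = 0.657, limma, adjusted p = 0.000148), TPM1 (0.637), CUL4A (0.626), TNNT3 (0.625), the growth factor gene VEGFA (0.611) and the metalloprotease gene NRDC (0.609). CUL4A was thus named for both CAPN3 and CAST, but its other probe set had r = 0.203 with CAPN3 and 0.196 with CAST. GGTA1P (-0.620), the glutaredoxin gene GLRX (-0.620), the phosphatase gene PTPN2 (-0.612) and the acyl-CoA thioesterase gene ACOT9 (-0.601) were most opposed. Other probe sets of VEGFA had r from -0.386 to -0.166 with CAST and those of TPM1 from -0.211 to 0.090, so these 2 genes rest on 1 probe set each.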

How the data were processed

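Total RNA of 59 pig muscles was hybridised to Affymetrix porcine arrays, 1 per pig. The authors normalised the deposited values with GCRMA, per the submitters' processing notes, to 1 value per probe set and array, read here as log2 since they run from 2.39 to 15.04 and no source used here names the base. Differences of dim probe sets are less certain, and the number of arrays limits the precision. Nothing says more of the replicates than 1 array per pig. No pair of arrays held identical values.

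Probe sets whose mean reached the median of all non-control means were tested, and the brightest stood for a gene. Slopes per SD of a regressor were fitted with limma (lmFit, eBayes), leaving out the regressor's own genes by symbol, with Benjamini-Hochberg adjustment across the tested probe sets and a threshold of 0.05. Pairs and differences used two-sided permutation tests of 100000 resamples. A list score is the mean of standardised log2 values, rescaled to an SD of 1. The fitting steps were tested on simulated data. Genes named by pattern are the 6 highest and 4 lowest r among called genes whose sign held at an unadjusted p under 0.05 once the 2 arrays farthest from the member's median were left out; up to 4 per proteolysis list were named by smallest p, and list examples beyond these were chosen after their values were seen. The members and the 25 gene lists were chosen with earlier results of these data known. Alternatives changed the filter, scaling, probe set, covariates and arrays. The tools were limma 3.58.1 in R 4.3.3, and numpy 2.4.6, scipy 1.17.1, pandas 2.3.3 and matplotlib 3.10.9 in Python 3.11.15.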

Additional observations from a re-analysis of the deposited data

How the results depend on the processing

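Of 14 slopes of members on list scores that passed, counts under the alternatives ran from 10 to 16, and the 12 differences between members from 10 to 15. CAPN1 on fast fibre and glycolysis, CAPN3 on glycolysis, CAST on fast fibre, CAPN2 on oxidative phosphorylation and the second CAST probe set on proteasome kept their calls in every alternative run. These alternatives did not exchange the member's own probe set. The dimmer CAPN3 probe set had r = 0.00 on glycolysis. The second CAST probe set had 0.21 on fast fibre and the brightest -0.09 on proteasome, and none of these was called. CAST on heat shock had a slope of 0.15 (limma, adjusted p = 0.0363) with the first principal component in the model, of the opposite sign to the main one. That component correlated with the heat shock score at r = -0.858, so this fit covers only the rest of the score. The pairs rest on fewer settings (permutation tests throughout). CAPN1 with CAPN2 had 0.158 by rho, 0.217 after quantile normalisation, 0.179 without the 2 extreme arrays, 0.294 without pig 41, and 0.293 and 0.236 given the fast fibre and glycolysis scores. Each of these genes has 1 probe set, so a mean over probe sets leaves their r at 0.293 by construction. The adjusted p of 0.122 in that setting moved only because the other pairs changed. CAPN1 with CAST had 0.269 by rho, 0.266 using a gene's mean over its probe sets, 0.253 given the first principal component, 0.266 without the 2 extreme arrays, -0.011 and 0.138 given fast fibre and glycolysis, and 0.060 with the second CAST probe set. CAPN1 with CAPN3 had 0.393 given RNA quality, -0.135 and -0.248 given fast fibre and glycolysis, and -0.088 with the second CAPN3 probe set. CAPN2 with CAPN3 had -0.120 using a gene's mean over its probe sets, -0.017 and -0.074 given fast fibre and glycolysis, and -0.188 with the second CAPN3 probe set. CAPN3 with CAST had 0.233 (adjusted p = 0.152) using a gene's mean over its probe sets and -0.031 with the second CAPN3 probe set. With 1 array left out at a time, r ran from 0.202 to 0.339 for CAPN1 with CAPN2, 0.293 to 0.429 for CAPN1 with CAST and -0.016 to 0.120 for CAPN2 with CAPN3. Probe sets following CAPN1 numbered 2081 at the 75th percentile filter. Those following CAPN2 numbered 1030 after re-centring and 343 after quantile normalisation. Those following CAPN3 numbered 2083 at the 75th percentile filter, where fewer probe sets were tested, and 1585 using a gene's mean over its probe sets. Those following CAST numbered 65 using a gene's mean over its probe sets, which averages in the 3 dim ones, 390 with the first principal component, 360 without the 2 extreme arrays and 955 without the most extreme. Where no construction of an alternative shows it, the cause was not tested. The macrophage score could not be computed at the 75th percentile filter, where no marker was left. Partial correlations given the fibre and glycolysis scores, the second probe sets, pigs 38 and 41 and single arrays left out of the fits were chosen after seeing the data. Signal over background limits the 3 dim CAST probe sets. No paired analysis was possible because the pigs form 1 group.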

Other observations

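A few pigs stood at the ends of several measures. Pig 72 was lowest in CAPN1 and CAPN2 and second lowest in CAST, with 3.36 SD on the slow fibre score, the highest oxidative phosphorylation score and the lowest fast fibre and glycolysis scores, while its CAPN3 ranked 17 from the lowest of 59. Pig 36 had the lowest CAPN3, the third lowest CAST and the lowest oxidative phosphorylation score (-2.23 SD), with CAPN2 at rank 54. Pig 19 was highest in CAPN1 (8.53 log2), second highest in CAPN3 (11.64 log2) and among the 5 highest in CAPN2 and CAST.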
